A study of Mus musculus with 4 samples.

Results

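The 10 genes described here are expressed in neutrophils and their precursors, and their products belong to successive stages of neutrophil maturation. They were chosen by symbol from the 23282 gene rows of the mouse lung data, and all 10 were found, each in 1 row. The primary granule class held Elane, Mpo, Prtn3 and Ctsg. The secondary and tertiary granule class held Ngp, Camp, Ltf and Mmp8, and the cytosolic class held S100a8 and S100a9. All 10 passed a filter at a mean normalized read count of 4 over the libraries, but only 7 had more than 3 reads in either library without tumor. Elane, Ctsg and Mpo therefore passed through the tumor libraries.

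Lung RNA was sequenced from the 3′ ends of transcripts in 4 libraries, 1 for each group of a design that crossed treadmill running (E) with tumor (T). The study asked what running changes in healthy and in tumor-bearing mice. All groups were male CDF1 mice with 10 animals per group. The normal control, E(-)T(-), neither ran nor received tumor cells, and the normal exercise group, E(+)T(-), ran at high intensity without tumor cells. The cancer control, E(-)T(+), received CT26 cells without running. The cancer exercise group, E(+)T(+), received the cells and ran. CT26 is a mouse colorectal carcinoma line, and it was given through the tail vein, so tumor in this model seeds tissues such as the lung from the blood. The labels give postnatal day 28 for all mice, which in the methods is the age at purchase. For muscle the study describes a representative mouse from each group, and it calls the work on the lung similar without restating the source of the RNA. With 1 library per group no difference between groups has a replicate check.

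Neutrophils mature in the bone marrow, and their granules are filled in the order in which the genes are switched on. Promyelocytes make the primary (azurophil) granule proteins, myelocytes and metamyelocytes make those of the secondary (specific) granules, and band cells add those of the tertiary (gelatinase) granules. Circulating neutrophils keep the stored proteins but hold little primary granule mRNA, while S100a8 and S100a9 mRNA stays abundant in mature cells. In bulk lung RNA, a difference in the number of such cells and a difference in RNA per cell cannot be told apart.

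The promoters of the primary granule genes and of 3 secondary and tertiary granule genes are shown because a pair of short motifs was distributed unequally between the classes. The motifs were GGAAGT, the core read by PU.1 and other ETS factors, and TTGCNNAA, a core form of the C/EBP site. Each was searched on both strands (ACTTCC and TTNNGCAA on the other strand) in the 250 bases before the RefSeq start. The sequences are from RefSeq on GRCm38.p6, 5′ to 3′ on the gene's strand, and stop at the first base of a GENCODE exon of the gene. Capitals mark matches, and in Ctsg the first match is to TATAAA, the TATA box, on the other strand. The windows were chr10:79886062-79886246 (plus strand) for Elane, chr11:87793534-87793580 (plus strand) for Mpo, chr10:79879417-79879613 (plus strand) for Prtn3, chr14:56102575-56102824 (minus strand) for Ctsg, chr9:110419558-110419746 (plus strand) for Ngp, chr9:111019042-111019270 (plus strand) for Ltf and chr9:7558179-7558428 (plus strand) for Mmp8.
Elane: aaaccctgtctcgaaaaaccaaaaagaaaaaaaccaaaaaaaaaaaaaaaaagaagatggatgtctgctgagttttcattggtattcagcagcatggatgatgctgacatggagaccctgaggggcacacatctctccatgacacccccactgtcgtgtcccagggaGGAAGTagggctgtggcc
Mpo: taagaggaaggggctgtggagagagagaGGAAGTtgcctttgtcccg
Prtn3: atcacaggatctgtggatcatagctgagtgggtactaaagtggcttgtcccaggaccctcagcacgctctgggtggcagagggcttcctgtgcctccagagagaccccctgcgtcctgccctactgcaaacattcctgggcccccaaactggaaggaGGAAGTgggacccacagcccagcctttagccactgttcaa
Ctsg: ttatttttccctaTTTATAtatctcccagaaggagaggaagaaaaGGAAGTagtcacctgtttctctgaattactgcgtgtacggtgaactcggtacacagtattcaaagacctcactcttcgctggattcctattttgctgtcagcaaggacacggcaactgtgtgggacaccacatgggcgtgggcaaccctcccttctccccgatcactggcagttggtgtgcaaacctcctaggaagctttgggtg
Ngp: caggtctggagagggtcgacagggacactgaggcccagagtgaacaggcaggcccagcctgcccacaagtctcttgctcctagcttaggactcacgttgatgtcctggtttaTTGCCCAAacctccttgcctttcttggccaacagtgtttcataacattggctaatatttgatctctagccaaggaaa
Ltf: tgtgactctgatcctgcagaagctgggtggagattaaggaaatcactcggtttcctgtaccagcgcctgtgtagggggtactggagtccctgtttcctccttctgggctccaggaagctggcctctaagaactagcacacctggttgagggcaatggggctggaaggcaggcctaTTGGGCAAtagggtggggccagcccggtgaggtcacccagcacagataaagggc
Mmp8: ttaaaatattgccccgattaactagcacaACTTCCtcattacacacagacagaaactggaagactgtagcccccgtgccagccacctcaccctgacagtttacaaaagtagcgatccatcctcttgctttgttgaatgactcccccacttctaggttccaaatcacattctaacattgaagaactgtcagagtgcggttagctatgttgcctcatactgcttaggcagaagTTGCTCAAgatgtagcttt

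GGAAGT was present before the RefSeq start of all 4 primary granule genes, 1 of 4 secondary and tertiary granule genes (Mmp8) and both cytosolic genes, against 19.7% of the 32851 promoters searched. By the GENCODE positions the Prtn3 window lies inside the gene, which spans 79874476 to 79883174 on chromosome 10. TTGCNNAA was present before none of the primary granule genes, before 3 of 4 secondary and tertiary granule genes (Ngp with 2 matches, Ltf and Mmp8) and before S100a9, against 9.56% of promoters. The second Ngp match lay 11 bases before the RefSeq start, beyond the stretch shown. TATAAA was present before Ctsg and S100a8, against 12.4% of promoters. The motifs were chosen after the sequences had been seen and no test was made, a match describes only these letters in this window, and the motifs do not overlap each other. Several of the genes are close neighbours in GRCm38. Prtn3 and Elane lie 3.07 kb apart on chromosome 10, and S100a8 and S100a9 lie 22.6 kb apart on chromosome 3. Camp, Ngp and Ltf lie on chromosome 9, with 570 kb between Camp and Ngp and 596 kb between Ngp and Ltf.

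The libraries held 9354489 to 13368024 reads assigned to genes, recovered from the deposited values. Hemoglobin genes and Rn45s, a ribosomal RNA gene, took 21.7% of the reads in the normal control, 20.2% in normal exercise, 6.26% in the cancer control and 36.9% in cancer exercise. Lung epithelium markers were counted in every library. Sftpc, surfactant protein C, had 137670, 153667, 11268 and 69686 reads in the normal control, normal exercise, the cancer control and cancer exercise, and this order of the libraries is used throughout. In normal exercise, 9 of 9 rows without a read in the normal control and with at least 500 normalized counts in the cancer control had reads, at a median of 1.47% of the cancer control level (range 0.642 to 2.18). No such share of cancer exercise was measured. Intervals below are 95% exact intervals of read ratios. They show counting error and no other spread, and since no use of molecular identifiers was stated, PCR copies may be among the reads.

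The 10 genes together took 0.034% of all reads in the normal control (95% Wilson interval 0.033 to 0.035), 0.0971% in normal exercise (0.0954 to 0.0988) and 0.103% in the cancer control (0.101 to 0.105). In cancer exercise they took 1.23% (1.22 to 1.24). The library of tumor-bearing mice that ran was therefore the highest, and the normal control was the lowest. For 9 of the 10 genes the highest level was in cancer exercise. The exception was Ltf, which was highest in the cancer control.

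**Figure D1:**
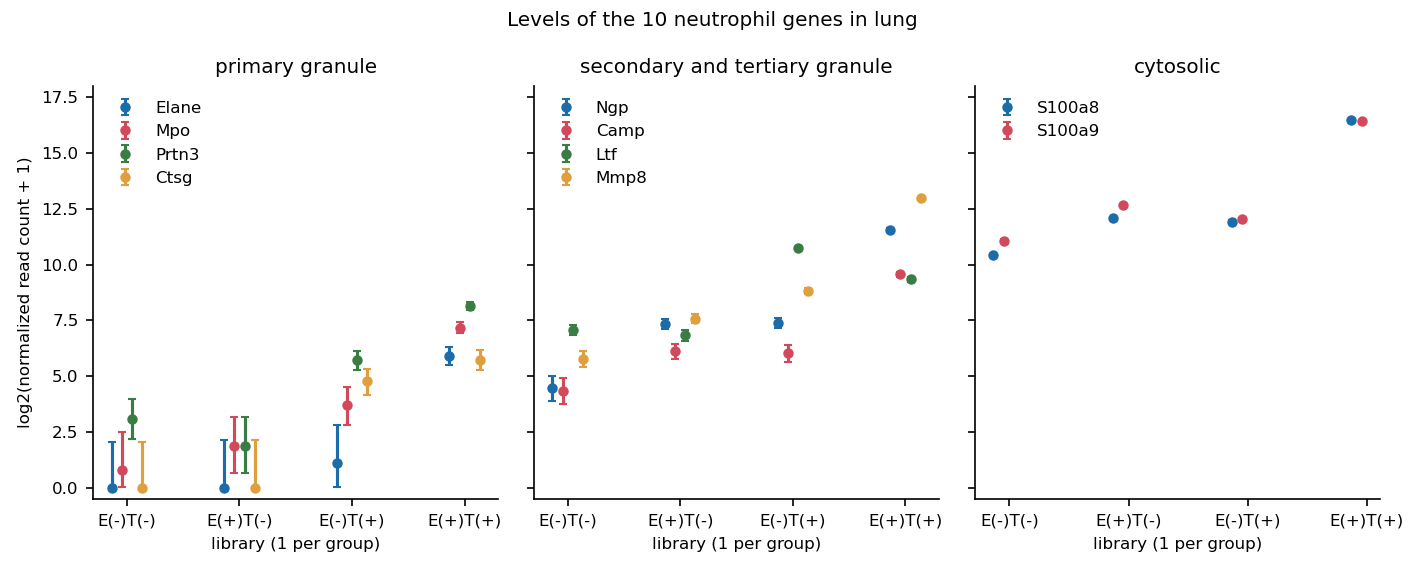
Level of each gene in each lung library, in 3 panels by class; the y axis is log2(normalized read count + 1), each point is 1 library and the bars are 95% exact Poisson intervals of the reads (counting error alone). Elane and Ctsg had 0 reads in both libraries without tumor, S100a8 and S100a9 stood at 16.46 and 16.43 in cancer exercise, and Ltf is the gene whose cancer control point lies above its cancer exercise point.

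Each comparison was a difference of log2(normalized read count + 1), which understates the change of low genes, and a 2-fold difference was taken as the limit. For the exercise effect without tumor, normal exercise over normal control, 6 of the 10 genes were past 2-fold higher, where 5.28% of the 15164 filtered rows were, and 1 was past 2-fold lower, where 4.7% of the rows were. Of the 7 genes with more than 3 reads in either library, 5 were higher (Ngp, Camp, Mmp8, S100a8 and S100a9), each with an interval above 0. Prtn3, the lower one, had an interval that included 0. The median of the 10 differences was 1.34, and that of all filtered rows was 0.00.

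For the tumor effect without exercise, cancer control over normal control, 9 genes were past 2-fold higher, against 20.6% of rows, and none was lower, against 25.7% of rows. Their median was 2.77, beside -0.03 for all rows. Of the 7 genes with more than 3 reads in a library without tumor, 6 were higher. S100a9 lay just within the limit at 0.96, and Elane had 1 read against 0. For the exercise effect with tumor, cancer exercise over cancer control, 8 genes were past 2-fold higher, against 24.3% of rows, and 1 (Ltf) was lower, against 17.7% of rows. Elane had to be high in cancer exercise to pass the filter, and of the 7 genes with more than 3 reads in a library without tumor 6 were higher and Ltf was lower. The median was 3.86, beside 0.01 for all rows. Ctsg lay within the limit at 0.96.

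For the tumor effect with exercise, cancer exercise over normal exercise, all 10 genes were past 2-fold higher, against 14.9% of rows, while 13% of rows were lower. Elane, Ctsg and Mpo passed the filter only through the tumor libraries, and the other 7 genes were all among the higher. The 10 differences ran from 2.51 for Ltf to 6.27 for Prtn3, and the Prtn3 difference was the 5th largest of all 15164 rows. For tumor plus exercise, cancer exercise over normal control, all 10 genes, and so again these 7, were higher, against 14.8% of rows, while 14.4% of rows were lower. The differences ran from 2.27 for Ltf to 7.21 for Mmp8. These comparisons share libraries, so their counts are not independent of one another.

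**Figure D2:**
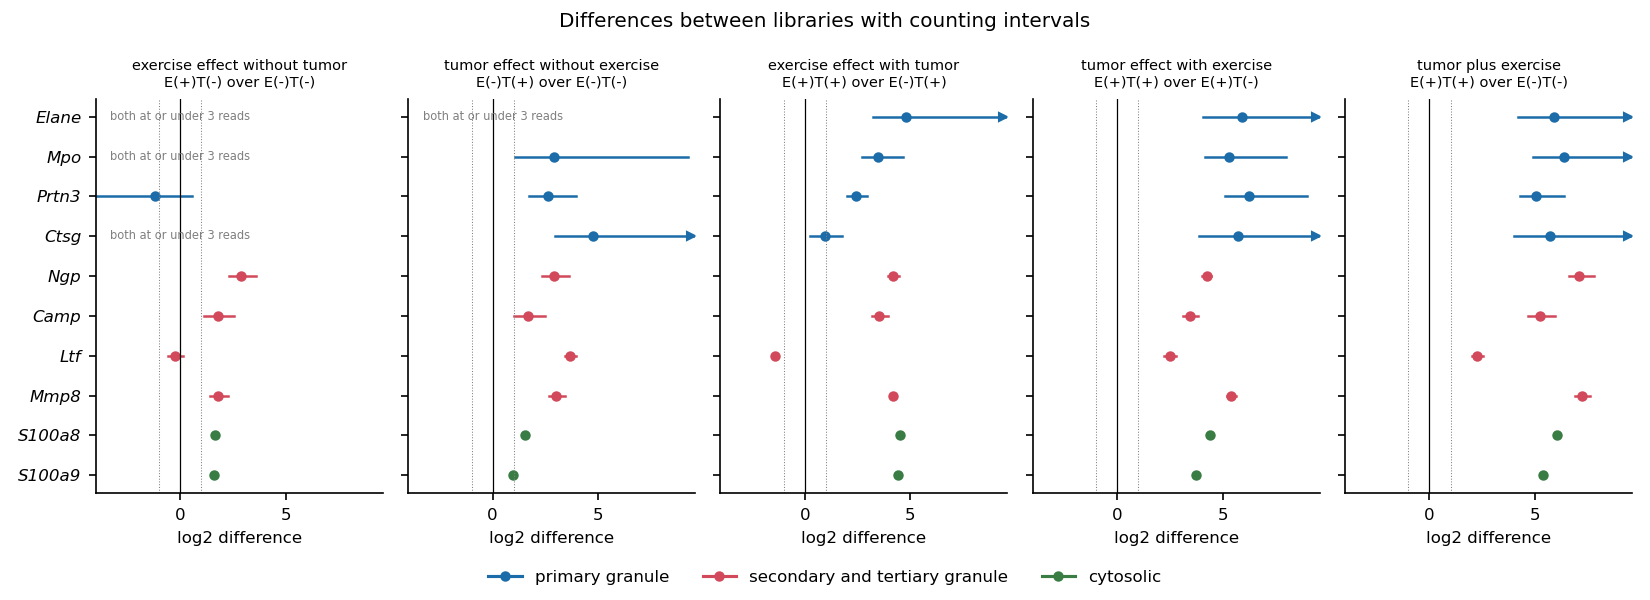
Difference of each gene in the 5 comparisons; the x axis is the log2 difference of the values (dots), lines are 95% exact intervals of the read ratio, arrows mark intervals that run past the axis or have no upper end, dotted lines mark 2-fold and colors give the class. All 10 genes lie to the right of the 2-fold line in both comparisons at the right, and Ltf alone lies left of -1 in the exercise effect with tumor, at -1.40.

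The primary granule genes were near the floor of detection in both libraries without tumor and, but for Elane with 1 read in the cancer control, were counted above it in both tumor libraries. Their summed reads were 10, 6, 83 and 463 in the 4 libraries. Scaled by library size, the sum in the cancer control was 10.7-fold that in the normal control, with a log2 ratio of 3.42 (2.47 to 4.53). The sum includes Elane, Ctsg and Mpo, which passed the filter only through the tumor libraries, so a high sum with tumor was partly built in, and Prtn3 alone was 6.73-fold higher. The sum in cancer exercise was 5.95-fold that in the cancer control, with a log2 ratio of 2.57 (2.23 to 2.93). Between the libraries without tumor the log2 ratio was -0.62 (-2.37 to 0.98), so a difference was not detectable at this depth.

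Prtn3, proteinase 3, a serine protease of the primary granule, had 9, 3, 47 and 243 reads. It was the most counted primary granule gene in 3 of the 4 libraries, and in normal exercise it tied with Mpo at 3 reads. The tumor libraries lay above those without tumor, with log2 differences of 2.62 (interval of the read ratio 1.71 to 3.97) without exercise and 6.27 (5.12 to 8.98) with exercise. The exercise effect was -1.21 without tumor, with an interval of -3.99 to 0.53, and 2.44 (2.01 to 2.95) with tumor. Prtn3 overlaps Plppr3 on the opposite strand in the GENCODE annotation, and whether strand was used in counting was not stated. Plppr3, listed under its older symbol Lppr3, had 18, 10, 9 and 20 reads, below the 47 and 243 of Prtn3 in the tumor libraries but above its 9 and 3 in the libraries without tumor, and lower in normal exercise than in the normal control, as Prtn3 was.

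Mpo, myeloperoxidase, which makes hypochlorous acid from hydrogen peroxide, had 1, 3, 11 and 124 reads. Its level in cancer exercise was 12-fold that in the cancer control, with a log2 read ratio of 3.59 (2.70 to 4.63). Both libraries without tumor were at or under 3 reads. The difference of 1.08 between them is past 2-fold and is among the 6 counted above, but the interval of its read ratio (-1.94 to 7.41) included 0. Mpo overlaps an antisense RNA gene, Gm11505, on the opposite strand, and reads of the pair cannot be told apart if strand was not used.

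Elane, neutrophil elastase, had 0, 0, 1 and 51 reads, so nearly all of its reads came from the library of tumor-bearing mice that ran. The read ratio of cancer exercise to the cancer control was 54.4 once scaled, a log2 ratio of 5.77 (3.22 to 11.10) that rests on a single read below. Against a floor of 3 reads per library, Elane in cancer exercise was at least 21.6-fold higher than in normal exercise and at least 23.4-fold higher than in the normal control. The floor carries no counting error of the higher library, and the exact interval of the log2 read ratio against normal exercise began lower, at 4.08. Ctsg, cathepsin G, had 0, 0, 24 and 45 reads and differed from Elane in being counted clearly in the cancer control, where it was at least 10.3-fold higher than in the normal control against the same floor, with an exact interval that began at a log2 ratio of 2.96. The exercise effect with tumor was 0.96 for Ctsg, with a read ratio interval of 0.25 to 1.78.

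The proportions of the primary granule genes were compared between the tumor libraries. Per read of Prtn3 there were 0.0213 reads of Elane in the cancer control (0.000528 to 0.124) and 0.21 in cancer exercise (0.152 to 0.285). Ctsg went the other way, with 0.511 reads per Prtn3 read in the cancer control (0.299 to 0.852) and 0.185 in cancer exercise (0.132 to 0.255). The intervals of the libraries did not overlap for either gene, but for Elane this rests on a single read, and the filter itself required Elane to be high in cancer exercise. For Mpo they did, with 0.234 (0.109 to 0.458) and 0.51 (0.408 to 0.636) reads per Prtn3 read.

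Among the secondary and tertiary granule genes, Ngp, Camp and Mmp8 were lowest in the normal control and highest in cancer exercise, and Ltf was not. Ngp, neutrophilic granule protein, a cystatin-related protein of the secondary granule, had 25, 175, 152 and 2608 reads. The libraries with exercise alone and with tumor alone were close, with a log2 read ratio of 0.05 for tumor over exercise (-0.27 to 0.37), and both were above the normal control. The exercise effect was 2.87 without tumor (2.31 to 3.59) and 4.18 with tumor (3.96 to 4.44). Camp, the precursor of the antimicrobial peptide CRAMP, had 23, 75, 59 and 649 reads. Its exercise effect was 1.77 without tumor (1.13 to 2.56) and 3.53 with tumor (3.17 to 3.96), and the cancer control and normal exercise again did not differ beyond counting error, at -0.09 (-0.61 to 0.42).

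Mmp8, neutrophil collagenase, had 64, 208, 409 and 6983 reads. Every step between neighbouring libraries in this order was larger than its counting error, including that from normal exercise to the cancer control, at 1.23 (0.99 to 1.48). Tumor plus exercise stood at 7.21 (6.88 to 7.61), the largest of the 10 genes on the scale of log2(normalized read count + 1). Its read ratio of 150 was below that of Mpo, 171, which rests on a single Mpo read in the normal control. In cancer exercise, Mmp8 ranked 136th and Ngp 528th from the highest of the 23282 rows. Reads come from transcript ends, so the ranks are of reads per transcript end and were not divided by length.

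Ltf, lactotransferrin, the iron-binding protein of the secondary granule that glandular epithelium also makes, had 157, 123, 1560 and 554 reads. It was highest in the cancer control, where the other 9 genes were not. Its exercise effect with tumor was -1.40 (-1.54 to -1.26), a 2.64-fold lower level in cancer exercise. Without tumor the exercise effect was -0.24 with an interval of -0.59 to 0.11, and it was -0.60 once the share of the cancer control seen in normal exercise was taken out. The tumor effect was 3.67 (3.44 to 3.93) without exercise and 2.51 (2.23 to 2.81) with exercise.

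Ltf thus shared the direction of the tumor effect with the genes of its own class but not that of the exercise effect. There were 2.45 Ltf reads per Mmp8 read in the normal control (1.82 to 3.33), 0.591 in normal exercise (0.469 to 0.743), 3.81 in the cancer control (3.42 to 4.26) and 0.0793 in cancer exercise (0.0726 to 0.0865). The ratio was lower in both libraries with exercise than in their counterparts, and no intervals overlapped. Within the class the proportion of Ngp to Camp also differed, with 1.09 Ngp reads per Camp read in the normal control (0.592 to 2) and 4.02 in cancer exercise (3.69 to 4.39), with 2.33 and 2.58 in the libraries between. Lung epithelium markers were read because epithelium can express Ltf. In the cancer control 9 of 10 were past 2-fold lower than in the normal control, where 25.7% of all filtered rows were. The list was not chosen for glandular epithelium. The part of any cell type in the Ltf values was not tested.

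The cytosolic genes were the most abundant of the 10 in every library. S100a8 and S100a9 encode the subunits of calprotectin, a calcium- and zinc-binding heterodimer of the neutrophil cytosol that acts as an alarmin outside the cell. S100a8 had 1608, 4680, 3567 and 77269 reads, and S100a9 had 2536, 7143, 3818 and 75784. Cancer exercise stood far above the others, and there the genes ranked 9th and 11th of all 23282 rows. Unlike every other member, both were higher in exercise alone than in tumor alone beyond counting error, with log2 ratios for tumor over exercise of -0.14 (-0.20 to -0.07) and -0.65 (-0.71 to -0.59).

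The exercise effect was 1.65 (1.57 to 1.74) for S100a8 and 1.61 (1.54 to 1.67) for S100a9 without tumor. With tumor it was 4.53 (4.48 to 4.58) and 4.40 (4.36 to 4.45), which are 23.1-fold and 21.2-fold ratios between the tumor libraries. The tumor effect without exercise differed between the subunits, at 1.52 (1.43 to 1.60) for S100a8 and 0.96 (0.88 to 1.03) for S100a9. Accordingly there were 0.634 S100a8 reads per S100a9 read in the normal control (0.595 to 0.675) and 0.655 in normal exercise (0.631 to 0.68). The ratio was 0.934 in the cancer control (0.892 to 0.978) and 1.02 in cancer exercise (1.01 to 1.03). The tumor libraries thus held the subunits at nearly equal reads, and the libraries without tumor did not.

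Comparing the classes within a library removes any factor that scales all neutrophil RNA alike, including library scaling. For exercise without tumor the later classes were higher and the early class was near the floor. The class medians were 0.00 for the primary granule genes, 1.79 for the secondary and tertiary granule genes and 1.63 for the cytosolic genes. Only Prtn3 of the primary class had more than 3 reads there, with a log2 read ratio of -1.47. In reads, primary granule genes gave 2.41 per 1000 cytosolic reads in the normal control (1.16 to 4.44) and 0.507 in normal exercise (0.186 to 1.1), and these intervals did not overlap. That difference rested on Prtn3.

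For tumor without exercise the class medians were 2.77, 2.97 and 1.24 in the same order of classes, so the secondary and tertiary class differed by more than the cytosolic class. The primary median rests on genes that passed the filter only through the tumor libraries and is not ranked with the others, and Prtn3 stood at 2.62. Primary granule genes gave 11.2 reads per 1000 cytosolic reads in the cancer control (8.94 to 14). Of these 83 primary reads 36 came from Elane, Ctsg and Mpo, so the rank of that library against those without tumor was partly set by the filter. Prtn3 alone gave 2.17 reads per 1000 cytosolic reads in the normal control (0.992 to 4.13), 0.254 in normal exercise (0.0523 to 0.742), 6.36 in the cancer control (4.67 to 8.47) and 1.59 in cancer exercise (1.39 to 1.8). The cancer control was the highest of the 4 libraries by Prtn3, and its interval overlapped none of the others. Secondary and tertiary granule genes had their highest ratio in the cancer control, with 295 per 1000 cytosolic reads (281 to 310), against 64.9 in the normal control, 49.1 in normal exercise and 70.5 in cancer exercise. Without Ltf the ratios were 27, 38.7, 84 and 66.9, so the cancer control remained highest at a smaller margin.

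For exercise with tumor the cytosolic class differed by more than the secondary and tertiary class. The class medians were 2.95 for the primary, 3.86 for the secondary and tertiary (4.18 without Ltf) and 4.47 for the cytosolic class. The primary median is not ranked, since Elane passed the filter only through cancer exercise and Ctsg and Mpo only through the tumor libraries, and Prtn3 stood at 2.44. The scaled sum of reads was 5.95-fold higher for the primary class and 22.1-fold higher for the cytosolic class, with log2 ratios of 2.57 (2.23 to 2.93) and 4.47 (4.43 to 4.50). For the secondary and tertiary class it was 5.28-fold higher, with a log2 ratio of 2.40 (2.33 to 2.47), and 17.6-fold higher without Ltf. Primary granule reads per 1000 cytosolic reads were 11.2 in the cancer control and 3.03 (2.76 to 3.31) in cancer exercise, although each primary granule gene had more reads in cancer exercise. Prtn3 alone was also lower in this ratio in cancer exercise than in the cancer control, and its 1.59 lay within the interval of the normal control.

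For tumor with exercise, cancer exercise over normal exercise, the class medians were 5.82 for the primary, 3.84 for the secondary and tertiary (4.24 without Ltf) and 4.07 for the cytosolic class. Elane, Ctsg and Mpo passed the filter only through the tumor libraries, so a large primary median was built in and the order of the medians carries no weight. Prtn3, the primary gene with more than 3 reads in a library without tumor, stood at 6.27 from 3 reads in normal exercise. The log2 ratio of summed reads was 6.62 (5.48 to 8.07) for the primary class, 4.56 (4.44 to 4.69) for the secondary and tertiary class and 4.04 (4.02 to 4.07) for the cytosolic class. Primary granule reads per 1000 cytosolic reads were 0.507 and 3.03 in those libraries, a difference partly built in by the same genes. For Prtn3 alone they were 0.254 and 1.59, with intervals that did not overlap. With a pseudocount of 4 the primary median was 4.22, close to the cytosolic 4.07. For tumor plus exercise the medians were 5.82, 6.16 and 5.70. This closeness depended on the pseudocount and on Ltf, since the primary median was 4.31 with a pseudocount of 4 and the secondary and tertiary median was 7.11 without Ltf. With libraries at 0 reads set to 3 and pairs at or under 3 left out, the primary medians of the 4 comparisons with tumor were 3.36, 3.03, 5.08 and 4.88. Prtn3 gave 9 of 10, 3 of 6, 47 of 83 and 243 of 463 primary reads. Without it, primary reads per 1000 cytosolic reads were 0.241 in the normal control, 0.254 in normal exercise, 4.87 in the cancer control and 1.44 in cancer exercise. These values rest wholly on Elane, Ctsg and Mpo. The libraries without tumor then held only 1 and 3 primary reads, too few to show a difference in this ratio.

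Primary granule reads per 1000 secondary and tertiary reads were 37.2 in the normal control (17.6 to 69.4), 10.3 in normal exercise (3.77 to 22.6), 38.1 in the cancer control (30.2 to 47.4) and 42.9 in cancer exercise (39 to 47.1). The intervals of the tumor libraries overlapped. Without Ltf the ratios were 89.3, 13.1, 134 and 45.2, so the cancer control then stood above cancer exercise, with intervals of 105 to 169 and 41.1 to 49.6. Without Prtn3 they were 3.72, 5.16, 16.5 and 20.4, where the first values rest on 1 and 3 primary reads. For Prtn3 alone they were 33.5, 5.16, 21.6 and 22.5.

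**Figure D3:**
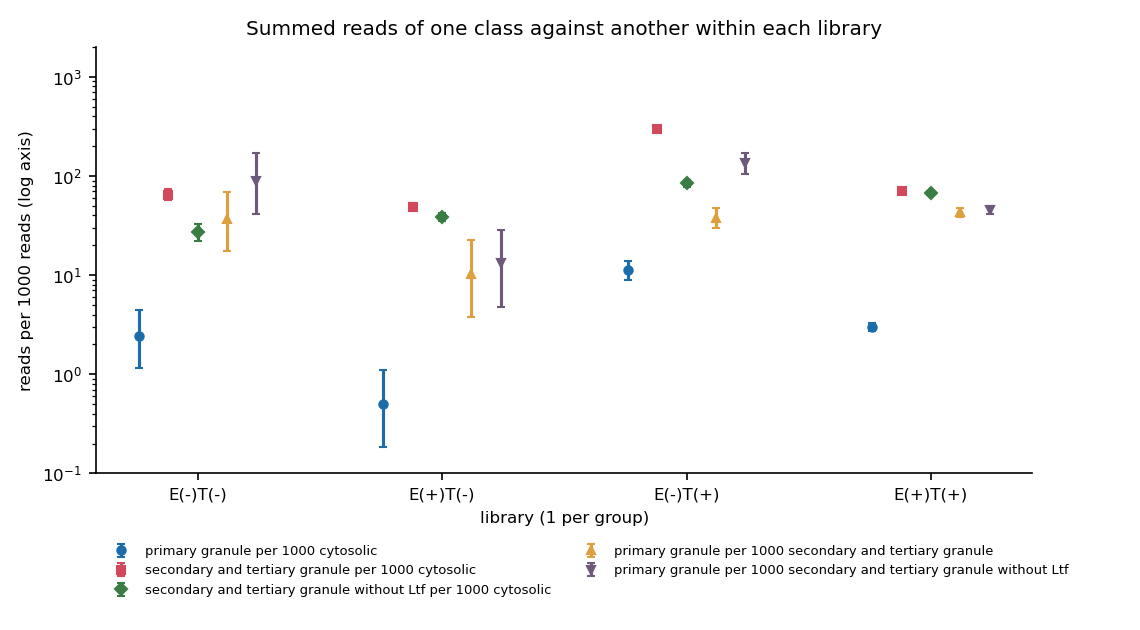
Summed reads of one class per 1000 reads of another within each library, on a log axis; points are libraries and bars are 95% exact intervals, hidden by the symbol where they are smaller. Primary granule reads per 1000 cytosolic reads were highest in the cancer control at 11.2, lowest in normal exercise at 0.507, and 3.03 in cancer exercise.

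An additive fit over all 4 libraries, with exercise and tumor as factors, has 1 residual degree of freedom, so the interaction serves as its spread. In the limma fit with Benjamini-Hochberg adjustment over all 15164 rows, 6 of the 10 genes were called higher with tumor, where 1.89% of the rows were called higher and 3.26% in either direction. These were Mmp8 (coefficient 4.22, adjusted p = 0.00224), Ngp (3.58, 0.00506), Ltf (3.09, 0.00551), S100a8 (2.95, 0.0301), Prtn3 (4.44, 0.0311) and Ctsg (5.25, 0.0379), the last of which lost its call with median-of-ratios size factors (0.054). Ctsg had no read without tumor and passed the filter only through the libraries where it was high, so its call carries no weight here. Of the 7 genes with more than 3 reads in a library without tumor, 5 were called. All 3 classes were among them. Camp, Mpo, S100a9 and Elane were not called, with limma adjusted p of 0.0569, 0.0707, 0.0818 and 0.253. Camp, Mpo and S100a9 were called with no filter (0.00807, 0.0123 and 0.00929), where 3.48% of rows were called higher, and with a pseudocount of 4 (0.0302, 0.0342 and 0.0424), where 3.03% were, so that all 7 genes with more than 3 reads in a library without tumor were called under both. Mpo is not among the 7 and, like Ctsg, had to be high with tumor to pass the filter. In log2 values, these 7 genes were higher with tumor at both levels of exercise. No row and none of the 10 genes was called for exercise, where 4.97% of rows and 5 of the 10 genes were under an unadjusted p of 0.05. Ngp came nearest in the limma fit, with a coefficient of 3.53 and an adjusted p of 0.0881, and it was higher with exercise in both pairs. With no filter on low rows, Ngp, Mmp8, S100a8 and S100a9 were called for exercise, 4 of the 10 genes, where 0.274% of the 18254 rows were called higher.

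Other genes of the maturation stages were read from lists chosen with earlier results of these data known, beside medians of all filtered rows between -0.03 and 0.01. The list counts stand beside these shares of all filtered rows past 2-fold higher and lower: 5.28% and 4.7% for exercise without tumor, 20.6% and 25.7% for tumor without exercise, 24.3% and 17.7% for exercise with tumor, 14.9% and 13% for tumor with exercise, and 14.8% and 14.4% for tumor plus exercise. Of 10 other early genes, 8 passed the filter. For the exercise effect with tumor 6 of them were past 2-fold higher and 1 lower, with a median of 1.33, and for exercise without tumor none was past 2-fold. For tumor without exercise the median was -0.03, with Cd63 higher and Ctsc, Clec12a and Serpinb1a lower. At the middle of the list there stood Prss57, which cannot be told apart from an overlapping gene, and Ms4a3, with 0 reads in both libraries. This median is therefore not compared with that of the primary class. Ms4a3, a marker of granulocyte and monocyte progenitors, had 0, 0, 0 and 25 reads, a pattern close to that of Elane, and is 1 of the 6 although it passed the filter only through cancer exercise. Fcnb, ficolin B, had 0, 0, 3 and 5 reads, and Bpi had 0 reads in all 4 libraries. Prss57, a further primary granule protease, had 1029, 903, 727 and 1208 reads, within 14 reads of the overlapping Fstl3 in every library, and the pair cannot be told apart.

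Of 16 other secondary and tertiary granule genes, 14 passed the filter, and 9 of them were past 2-fold higher and none lower for tumor plus exercise, with a median of 2.90. Mmp25, with 0, 2, 2 and 41 reads, was among the 9 but passed the filter only through cancer exercise. Mmp9, gelatinase B, which defines the tertiary granule, had 193, 330, 604 and 2129 reads, the same order of libraries as Mmp8. Lcn2, lipocalin 2, a siderophore-binding protein, had 345, 335, 797 and 3460 reads, and Cd177, a neutrophil surface and granule protein, had 50, 39, 74 and 474. For exercise without tumor 2 of the 14 were higher. For tumor without exercise 6 were higher and 4 (Hp, Cybb, Lyz2 and Tcn2) were lower, with a median of 0.54, beside 2.97 for the member class. For exercise without tumor the median of the 14 was 0.09 and the largest value was 1.48, below those of Ngp, Camp and Mmp8. That value was of Mmp25, from 2 reads against 0, both under the floor of 3 reads. Mmp25 was thus among the 2 higher there. Again with 2 reads against 0, it was among the 6 higher for tumor without exercise.

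All 16 mature neutrophil genes passed the filter, and 14 of them were past 2-fold higher and none lower in both comparisons of cancer exercise with a library without tumor. The median was 2.96 for tumor plus exercise. Retnlg, resistin-like gamma, had 129, 690, 647 and 13518 reads, close in pattern to Ngp. Il1r2, the decoy receptor for interleukin 1, had 16, 84, 371 and 3675 reads. For exercise without tumor 8 of the 16 were higher and none lower, with a median of 0.94. For tumor without exercise 7 were higher and 3 lower, with a median of 0.50.

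Genes of granule formation and recruitment were more mixed. Of 9 filtered myeloid transcription factors, 6 were past 2-fold higher for exercise with tumor and 1 for exercise without tumor. For tumor without exercise Cebpd was past 2-fold higher, and Cebpa, Myb and Cebpe were past 2-fold lower. For Cebpe that was 0 reads against 3, both at or under the floor of 3 reads. Spi1, which encodes PU.1, had 239, 265, 251 and 888 reads. Cebpe, required for secondary granule genes, had 3, 15, 0 and 11 reads and did not follow them, since Ltf and Mmp8 were counted in the cancer control where Cebpe had no read. Gfi1, a repressor needed for granulocyte differentiation, had 13, 2, 1 and 0 reads. Of 8 filtered granulopoietic cytokines, chemokines and receptors, 2 were past 2-fold higher and 3 lower for tumor without exercise, and 4 higher and 1 lower for tumor plus exercise. Il6, with 0, 2, 4 and 21 reads, was among the higher in both but passed the filter only through cancer exercise. The summed reads of all 10 genes found of this list, 4872, 5233, 1330 and 3708, were lower in the tumor libraries. For cancer exercise this rested on Cxcl12, without which its sum was not lower. Cxcl12, a chemokine that retains neutrophils in the marrow, had 3424, 3334, 461 and 1314 reads, and its receptor Cxcr4 had 415, 478, 100 and 397. Cxcl2, a neutrophil attractant, had 37, 40, 71 and 671 reads, while Csf3, the granulocyte growth factor G-CSF, had 0, 1, 2 and 2.

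Inhibitors of the granule proteases and partners of the cytosolic proteins were read in the same way. Of 12 filtered inhibitor and partner genes of the granule proteases, 7 were past 2-fold higher and 1 lower for tumor plus exercise, with a median of 2.63. Among the 7, Stfa2 (0, 4, 164 and 850 reads) and Stfa3 (0, 5, 125 and 248) passed the filter only through the tumor libraries. Serpina3n, a serine protease inhibitor that acts on cathepsin G, had 204, 216, 1803 and 4274 reads. Stfa1, Stfa2 and Stfa3, cystatin-type inhibitors whose copies are alike enough to share reads, had the largest differences of this list and are uncertain one by one. For Stfa2 and Stfa3 a large difference with tumor was partly built in by the filter. Of 10 receptors and partners of the cytosolic proteins, 3 were higher and none lower for tumor plus exercise, where 14.8% and 14.4% of rows were. S100a4, a relative of S100a8 and S100a9, had 901, 2178, 62089 and 8924 reads and so peaked in the cancer control, as Ltf did and S100a8 and S100a9 did not.

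**Figure D4:**
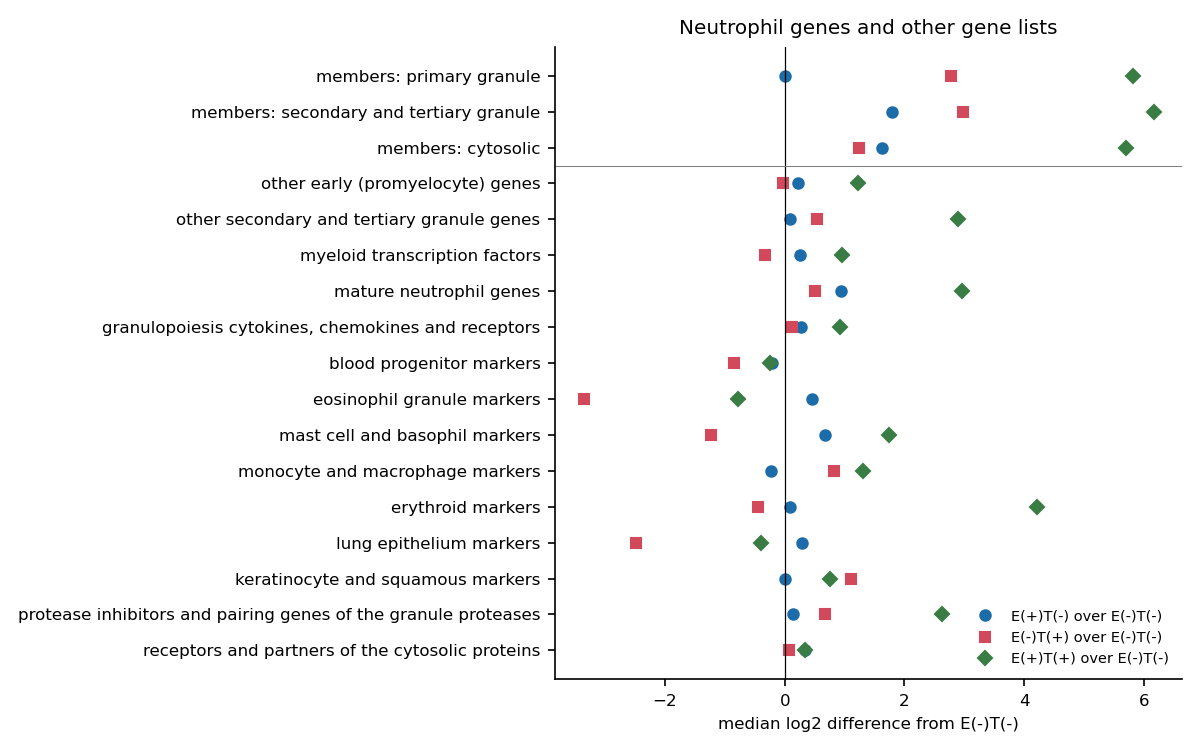
Median log2 difference from the normal control of the 3 classes (above the grey line) and of the other gene lists, for each of the other 3 libraries; the x axis is the log2 difference. For tumor plus exercise the class medians are 5.82, 6.16 and 5.70, and the erythroid markers come next at 4.22.

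Rows with the most similar profiles were found by the distance over the 4 libraries between a row and a class mean, each centred on its own mean, among 11216 rows with a mean normalized count of at least 50. Nearest the primary class were Ifitm6 (distance 0.32, with 15, 17, 81 and 676 reads), Asprv1, Gm5483, Vcan and Serpina3n. Nearest the secondary and tertiary class were Gm5483 (0.41), Retnla, Apold1, Clec4e and Alb, and without Ltf the nearest was Retnlg (0.49). Nearest the cytosolic class were Abcb4 (0.70), Trem1, Tmem40, Apold1 and Rdh12. By the same distance Prtn3, Ctsg, S100a8 and S100a9 were nearest the mean of their own class without themselves, and the other 6 genes were nearer the mean of another class. Elane (1.45 against 2.08), Ngp (1.29 against 1.95), Camp (0.68 against 1.38) and Mmp8 (1.58 against 1.87) were nearer the cytosolic mean, and Mpo (1.01 against 1.21) was nearer the secondary and tertiary mean. Mmp8 lay equally near the primary granule mean, at 1.58. Once Ltf was left out of their class, Ngp (0.82) and Mmp8 (1.23) were nearest their own class. Ltf was far from every class mean (3.30 to 4.37).

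Markers of other cells that share some of these genes were read beside the results. Monocytes and their precursors express primary granule genes and S100a8 and S100a9. Of 11 monocyte and macrophage markers, 4 were past 2-fold higher for tumor without exercise, where 20.6% of rows were, and 6 for tumor plus exercise, where 14.8% were, and their summed reads were 5017, 4719, 11997 and 12380. All 10 erythroid markers found of 12 were past 2-fold higher in cancer exercise than in each other library, with summed reads of 5042, 4884, 474 and 17177. Among them Rhag, with 0, 0, 1 and 28 reads, and Klf1, with 5, 1, 5 and 70, passed the filter only through cancer exercise. The member classes and the erythroid markers were thus both highest in cancer exercise. Of 8 mast cell and basophil markers, Mcpt8, a basophil protease, had 0, 1, 0 and 60 reads, and the summed reads of the list were 91, 117, 86 and 224. Keratinocyte markers were read because squamous cells also express S100a8 and S100a9, and the summed reads of the 8 were 136, 124, 293 and 64, highest in the cancer control. Krt10 gave most of these, with 120, 111, 263 and 43 reads. Krt6a, Krt13 and Sprr1b had 0 reads in all 4 libraries, and Krt5 had 0, 0, 18 and 1. The part of these cell types in the member values was not tested.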

How the data were processed

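Lung RNA of 4 groups was measured in 4 libraries, 1 per group, with the QuantSeq 3′ kit. The authors mapped reads with Bowtie2, derived read counts per gene from bedtools coverage and put those counts through edgeR's quantile normalization. Bowtie2, bedtools and build mm10 are named in the submitters' processing notes; versions, annotation and strand use were not given in the sources used here. The deposited files hold log2 values at 3 decimals.

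Each deposited value fits log2(normalized count + 1). A common dispersion and relative library sizes were fitted to 12 low-value patterns (dispersion 0.372), and whole read counts were then recovered. Putting these reads through the same adjustment gave 100.0% of the deposited values within 0.001 and 99.49% to all 3 decimals. For 94.6% of values 1 read could be told from the next, and higher counts carry an uncertainty of 0.035%. Totals were 13017509, 12780392, 9354489 and 13368024 reads in the normal control, normal exercise, the cancer control and cancer exercise, with scaling factors of 1.086, 1.023, 1.172 and 0.768.

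Rows were filtered at a mean normalized count of 4 (15164 rows), and differences of at least 2-fold were counted. With 1 library per group, pairs of libraries have no test. Read ratios carry 95% exact (Clopper-Pearson) intervals and shares Wilson intervals. A library at 0 was set to a floor of 3 reads for a fold. limma (lmFit and eBayes with trend) was fitted with exercise and tumor as factors and Benjamini-Hochberg adjustment over all filtered rows, with a limit of 0.05. Each procedure was run on simulated data. The libraries simulated for limma had no interaction, so they do not show how the fit behaves where an interaction serves as its spread. Python 3.11.15, numpy 2.4.6, scipy 1.17.1, pandas 2.3.3, R 4.3.3 and limma 3.58.1 were used.

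The genes and lists were chosen with earlier results of these data known. Named genes were the 10 genes, up to 4 genes of each other list with the largest difference, and the 5 nearest profiles of each class. Fcnb, Bpi, Prss57, Ctsc, Lcn2, Hp, Cybb, Lyz2, Tcn2, Gfi1, Cebpa, Cebpd, Csf3, Rhag, Klf1, Krt6a, Krt13, Sprr1b, Epx, Prg3, Fstl3 and the gene overlapping Prtn3 were named outside this rule, after their values were seen. Alternatives were other library scalings, a pseudocount of 4, other filters, and removal of the share of the cancer control seen in normal exercise. A share of cancer exercise in the other libraries was neither measured nor removed. Positions are from GENCODE vM21 and promoters from RefSeq, both on GRCm38, matched by symbol for all 10 genes.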

Additional observations from a re-analysis of the deposited data

Results flagged for a closer look

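The exercise effect on Prtn3, proteinase 3 of the primary granule, took opposite directions with and without tumor. The log2 difference was -1.21 without tumor, from 9 reads in the normal control and 3 in normal exercise. It was 2.44 with tumor, from 47 reads in the cancer control and 243 in cancer exercise. The difference between these effects was not tested, since each group had 1 library, and the interval of the read ratio without tumor (-3.99 to 0.53) included 0. The overlapping Plppr3 had 18 and 10 reads in the libraries without tumor, more than Prtn3, and whether strand was used in counting was not stated.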

How the results depend on the processing

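With 1 library per group, no replicate could be left out and depth limits only the counting error, which is wide for the primary granule genes without tumor (10 and 6 summed reads). No paired analysis was possible because each group had 1 library. No gene difference, class median or fitted coefficient changed sign under the settings run, but some class ratios changed their order between libraries when Ltf or Prtn3 was left out, as given at the end. Of the 250 gene differences under other settings 214 stayed within their counting error. Of 252 class and count values 203 stayed within limits built from counting intervals or within 1.5 times. The cause of the other shifts was not tested except where the setting itself holds fewer genes or rows. Median-of-ratios size factors and the removal of the cancer control share from normal exercise kept every class median between the medians of its genes' interval ends. These limits are not a counting interval of the class median itself. Median-of-ratios size factors put S100a9 past the limit for tumor without exercise, so that 10 in place of 9 genes were past 2-fold higher. Under library totals alone the median of all rows shifted to -0.08, 0.07, -0.59, -0.41 and -0.52 for the exercise effect without tumor, the tumor effect without exercise, the exercise effect with tumor, the tumor effect with exercise and tumor plus exercise, which is the order of all lists of 5 here. The cytosolic medians were then 1.54, 1.35, 3.86, 3.66 and 5.20, and the secondary and tertiary medians 3.25 for exercise with tumor and 3.43 for tumor with exercise. Rows past 2-fold were then 2482 higher and 5370 lower for exercise with tumor, 1440 and 3663 for tumor with exercise, and 1391 and 4340 for tumor plus exercise, while 8, 10 and 10 of the 10 genes were higher. S100a9 was then past 2-fold for tumor without exercise (1.07), and 5 in place of 6 genes were higher for exercise without tumor. Under totals without hemoglobin genes and Rn45s the cytosolic medians were 1.52 and 1.09 for exercise without tumor and tumor without exercise, 4.00 for tumor with exercise and 5.52 for tumor plus exercise. A mean normalized count of at least 100 left 158, 1724, 1829, 921 and 985 rows higher and 42, 1877, 1342, 765 and 843 lower, and no filter gave 1315 higher and 1291 lower for exercise without tumor. A pseudocount of 4 left 0 of the 10 genes lower for exercise without tumor, where Prtn3 had been past 2-fold. The primary medians were then 4.22 for tumor with exercise and 4.31 for tumor plus exercise, against 5.82 in both.

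In the limma fit with Benjamini-Hochberg adjustment, rows called for tumor were 495, and 1284 with no filter, 310 with median-of-ratios size factors and 884 with a pseudocount of 4. Of the 7 genes with more than 3 reads in a library without tumor, 7 were called for tumor with no filter and with a pseudocount of 4, in place of 5. For exercise 0 rows were called, and 58 rows with 4 of the 10 genes (Ngp, Mmp8, S100a8 and S100a9) with no filter, and 5 rows with 2 of the 10 genes (Ngp and Mmp8) with a pseudocount of 4. Ctsg lost its call for tumor with median-of-ratios size factors (adjusted p = 0.054), which left 5 in place of 6 genes. Alternatives chosen after seeing the data were these. With read ratios and the floor of 3 reads, the primary median for exercise without tumor was -1.47, from Prtn3 alone. Without Ltf, primary reads per 1000 secondary and tertiary reads were 89.3 in the normal control, and 134 in the cancer control against 45.2 in cancer exercise, the reverse of the order with Ltf (38.1 and 42.9), secondary and tertiary reads per 1000 cytosolic reads were 27, 38.7, 84 and 66.9 in the normal control, normal exercise, the cancer control and cancer exercise, and the secondary and tertiary medians were 4.18, 4.24 and 7.11 in the 3 comparisons of cancer exercise. Without Prtn3, primary reads were 0.241, 0.254, 4.87 and 1.44 per 1000 cytosolic reads and 3.72, 5.16, 16.5 and 20.4 per 1000 secondary and tertiary reads in the 4 libraries, the first 2 from 1 and 3 primary reads. With Prtn3 alone they were 2.17, 0.254, 6.36 and 1.59, and 33.5, 5.16, 21.6 and 22.5.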

Other observations

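Eosinophil granule markers were mixed. Ear1 and Ear2, eosinophil-associated ribonucleases that lung macrophages also express and whose sequences are alike enough to share reads, had 2022 and 1695 reads in the normal control, 1275 and 1390 in normal exercise, 65 and 80 in the cancer control, and 615 and 716 in cancer exercise. Epx and Prg3, the defining eosinophil granule genes, had at most 1 and 0 reads in any library. Prg2, the eosinophil major basic protein, had 0, 12, 3 and 14 reads in the normal control, normal exercise, the cancer control and cancer exercise, and so was higher in both libraries with exercise. Of 5 filtered eosinophil markers, 4 were past 2-fold lower for tumor without exercise, where 25.7% of all filtered rows were. Kit, a receptor of progenitor and mast cells, had 786, 456, 41 and 207 reads in the normal control, normal exercise, the cancer control and cancer exercise, and Meis1, a progenitor transcription factor also expressed in endothelium, had 559, 318, 13 and 110.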
